A study of Mus musculus with 158 samples.

Results

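The chromatin opened in mouse embryonic stem cells (mESCs) was set against that of 4 adult cell and tissue types of the same hybrid, B6xCAST: Liver, Kidney, Lung and B cell. The unit was the DNase-seq hotspot, a stretch of DNA where cuts by the enzyme DNase I are enriched, which marks open chromatin. The 5 hotspot sets of B6xCAST were taken whole on the 19 autosomes, and they held 112353 hotspots in mESCs, 226868 for Liver, 222467 for Kidney, 273104 for Lung and 151020 for B cell, of 3921855 autosomal hotspots in the 21 DNase-seq sets of the series. Hotspots of the 5 sets that touched by 1 bp or more were merged into 525338 regions. Of these regions, 40479 were open in mESCs only, 424909 in 1 or more adult sets only, and 33650 in all 5 sets. The other 26300 were open in mESCs and in 1 to 3 adult sets.

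B6xCAST animals are F1 offspring of C57BL/6J dams and CAST/EiJ sires, so all 5 sets share a genotype with 1 chromosome set from each parent. The mESCs were grown on gelatin in a medium that mixed 2i medium, which holds LIF and inhibitors of the GSK3 and MEK kinases, with serum medium. Adult mice, for which no treatment is given, were killed at 8 weeks of age, and solid organs were typically pooled over 4 animals. Liver, Kidney and Lung are whole organs that mix many cell types, while the B cells came from femoral marrow of females, depleted of cells carrying CD43 or Mac-1/CD11b. In whole organs, fewer cells of a type and weaker opening per cell cannot be told apart. The study sequenced DNase-seq libraries from 5 F1 hybrids, all with C57BL/6J dams, and added mESCs of B6xCAST. It mapped the protein CTCF in those mESCs by ChIP-seq, which recovers DNA bound by a chosen protein. The other 4 hybrids are B6x129, B6xC3H, B6xPWK and B6xSPRET, each named after its sire. The sires were C3H/HeJ for B6xC3H, PWK/PhJ for B6xPWK, SPRET/EiJ for B6xSPRET and a SvImJ strain for B6x129. These hybrids have adult sets of the same 4 cell and tissue types. The labels give 2 mESC libraries against 14 for Liver, 14 for Kidney, 10 for Lung and 10 for B cell, and the deposited hotspots are 1 pooled set for each. The labels and the written methods name the mESCs B6xCAST, while a supplementary list names them B6xC3H. Their hybrid is taken here from the labels and the written methods.

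Pluripotent cells can form every tissue of the body. A small circuit of transcription factors, with OCT4 (made from Pou5f1), SOX2, NANOG and ESRRB at its centre, keeps mESCs in this state, and OCT4 and SOX2 often bind side by side on a joint sequence. Enhancers, the control elements that lie away from genes, tend to be open in a few cell types, whereas the starts of genes that all cells use, and many sites of CTCF, a protein that shapes chromosome loops, are open in most.

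The places that tell mESCs and adult tissues apart are shown first as sequence. Each line gives 100 bases of mm10 (GRCm38), forward strand, centred on a consensus match in the middle 200 bp of a region. Capitals mark the match. The first set is shown because these regions lay near genes of naive pluripotency, were open in mESCs alone of the 5 sets, and held letters that pluripotency factors are known to bind. The letters searched were ATGCAAAT (the octamer of POU factors such as OCT4), ACAATGG (SOX factors), TCAAGGTCA (ESRRB and its relatives) and CCACACCC (KLF factors), on both strands.
Esrrb, +110.0 kb from the gene start, chr12:86471000-86471099, octamer: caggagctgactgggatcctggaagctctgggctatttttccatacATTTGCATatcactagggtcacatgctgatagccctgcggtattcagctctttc
Esrrb, +118.0 kb, chr12:86478994-86479093, octamer: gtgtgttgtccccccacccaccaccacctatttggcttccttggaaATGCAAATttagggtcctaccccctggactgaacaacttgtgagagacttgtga
Tfcp2l1, +148.7 kb, chr1:118776622-118776721, octamer: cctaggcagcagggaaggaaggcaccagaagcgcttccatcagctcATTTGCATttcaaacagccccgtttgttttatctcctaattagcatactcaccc
Pou5f1, -15.46 kb, chr17:35490522-35490621, SOX: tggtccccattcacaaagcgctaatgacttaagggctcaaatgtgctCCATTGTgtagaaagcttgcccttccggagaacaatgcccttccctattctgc
Zfp42, -1.626 kb, chr8:43308510-43308609, SOX: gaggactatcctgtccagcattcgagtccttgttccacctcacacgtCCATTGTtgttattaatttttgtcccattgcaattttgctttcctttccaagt
Klf2, +30.13 kb, chr8:72349092-72349191, ESRRB: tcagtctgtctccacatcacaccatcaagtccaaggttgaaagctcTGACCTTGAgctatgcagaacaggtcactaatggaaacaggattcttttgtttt
Tbx3, -85.69 kb, chr5:119584929-119585028, KLF: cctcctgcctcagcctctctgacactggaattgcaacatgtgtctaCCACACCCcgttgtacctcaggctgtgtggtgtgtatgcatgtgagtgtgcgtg
Pou5f1, -17.05 kb, chr17:35488835-35488934, KLF: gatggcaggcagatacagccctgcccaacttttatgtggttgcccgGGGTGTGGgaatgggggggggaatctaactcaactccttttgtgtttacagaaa
Fgf4, +17.1 kb, chr7:144864413-144864512, KLF: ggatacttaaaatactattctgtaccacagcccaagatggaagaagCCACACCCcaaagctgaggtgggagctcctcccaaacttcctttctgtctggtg

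The second set shows the joint OCT4-SOX2 sequence, which had the highest ratio of mESC-only to adult-only share among the 23 consensus sequences, in 2 of the 75 mESC-only regions that held it. Prr5, a partner of the mTOR kinase, and Gm17359, a predicted gene, are only the nearest protein-coding gene starts.
Gm17359, +80.59 kb, chr3:79417128-79417227, OCT4-SOX2: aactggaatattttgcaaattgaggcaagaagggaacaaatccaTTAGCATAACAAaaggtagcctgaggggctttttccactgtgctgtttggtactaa
Prr5, -47.36 kb, chr15:84622181-84622280, OCT4-SOX2: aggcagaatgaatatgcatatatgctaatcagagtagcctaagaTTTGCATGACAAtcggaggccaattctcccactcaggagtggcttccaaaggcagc

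The third set is the counterpart, regions open in all 4 adult sets and not in mESCs, with the consensus of AP-1 (TGANTCA, the FOS and JUN dimer), of NFI factors and of CEBP factors (TTGCGCAA), followed by regions open in all 5 sets with the consensus of CTCF, of ETS factors (ACCGGAAGT) and of NRF1 (GCGCATGCG). Ergic2 and Sec24c both serve transport between the endoplasmic reticulum and the Golgi, and their sequences lie at the gene start.
Zfp395, +16.61 kb, chr14:65374883-65374982, all 4 adult, AP-1: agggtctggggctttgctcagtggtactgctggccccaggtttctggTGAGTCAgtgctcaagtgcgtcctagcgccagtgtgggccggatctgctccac
Arid4a, +32.33 kb, chr12:71048293-71048392, all 4 adult, NFI: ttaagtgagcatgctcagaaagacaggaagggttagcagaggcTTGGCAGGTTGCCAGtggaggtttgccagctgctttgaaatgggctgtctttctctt
Irs1, -2.873 kb, chr1:82294286-82294385, all 4 adult, CEBP: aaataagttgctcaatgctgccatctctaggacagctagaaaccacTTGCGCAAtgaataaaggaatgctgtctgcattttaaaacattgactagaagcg
Rhbdd2, -16.32 kb, chr5:135616201-135616300, all 5, CTCF: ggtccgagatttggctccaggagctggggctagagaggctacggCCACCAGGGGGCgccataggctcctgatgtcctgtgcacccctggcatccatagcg
Ergic2, +0.171 kb, chr6:148212238-148212337, all 5, ETS: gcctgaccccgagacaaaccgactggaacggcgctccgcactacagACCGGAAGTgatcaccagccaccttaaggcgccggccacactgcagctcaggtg
Sec24c, -0.164 kb, chr14:20674157-20674256, all 5, NRF1: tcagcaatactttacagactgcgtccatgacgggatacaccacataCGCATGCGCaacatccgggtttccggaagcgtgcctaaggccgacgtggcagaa

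The mESC set stood apart from the adult sets in ways that bear on every comparison. Its hotspots were weaker by the score deposited with each, the −log10 of the false discovery rate (FDR), whose median was 3.58 for mESCs, 7.82 for Liver, 5.756 for Kidney, 5.456 for Lung and 7.166 for B cell. The score has a ceiling of 100, which 0.065% of mESC hotspots and 5.217% to 13.82% of adult hotspots reached. The hotspot files hold no read counts, and read depth is not analysed here. The study lists fewer analysed reads for the mESC libraries than for any of the 4 adult sets, so depth and cell type cannot be told apart as sources of a hotspot that is missing in 1 set. Since each cell or tissue type has 1 pooled set, no test was made. The 95% Wilson intervals given with shares cover counting error only, and the adult sets of the other 4 hybrids serve as the only repeats, although all 5 hybrids are then compared with the same mESC set.

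Further measurements separate the sets. Adult hotspots of different hybrids and tissues sometimes began or ended at the identical base: of the ends in the 20 adult sets, 2132 (0.1492%) were shared by 10 to 20 sets with no adult hotspot across them, and mESC hotspots spanned 476 of these (22.33%), against 2.403% of the ends found in 1 adult set. Of the 34295 mESC hotspots in none of the 20 adult sets, 476 lay within 5 kb of an end shared by 5 or more adult sets. These made up 1.176% of the 40479 mESC hotspots in no B6xCAST adult set, of which the others were not assessed. Whether a mask was used in making the adult sets is not given in the sources used here. The mESC-only regions were also crowded: 560 of 23906 windows of 100 kb (2.343%) held 10 or more each, and together 10092 (24.93%) of them. Values without these windows and without hotspots beside a shared end are given where they differ, a choice made after the data were seen.

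Chromatin open in mESCs was shared either with no adult set or with all of them more often than with a few. Of the 112353 mESC hotspots, 36.03% overlapped no adult hotspot and 34.26% overlapped one in each of the 4 adult sets. By tissue, 54.33% of mESC hotspots overlapped a Lung hotspot, 52.27% a Kidney hotspot, 45.29% a Liver hotspot and 43.03% a B cell hotspot, which is also the order of the sets by number of hotspots except that Liver and Kidney change places. In the other direction, 28.63% of B cell hotspots, 24.42% of Kidney, 21.46% of Liver and 20.65% of Lung hotspots overlapped a mESC hotspot. With the adult sets of each of the 5 hybrids in turn, the share of mESC hotspots in no adult set was 40.05% ± 3.792 (SD, n = 5), with a range of 36.03% to 44.09%. It was 40.74% with the 75000 highest-scoring hotspots of each set, 30.78% without the crowded windows and 35.76% without hotspots beside a shared adult end.

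Among merged regions the same form appeared. Of regions open in mESCs, 40.31% were open in 0 adult sets, 9.685% in 1, 7.784% in 2, 8.719% in 3 and 33.51% in 4. Regions closed in mESCs followed another order, with 68.1% in 1 adult set, 19.87% in 2, 8.998% in 3 and 3.035% in all 4. When mESCs shared a region with a single adult tissue, this was Lung in 3804 regions, Kidney in 2676, B cell in 1682 and Liver in 1565.

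Sharing was more frequent at higher scores of the mESC hotspot, apart from the ceiling. Of the 25578 mESC hotspots with a score below 2, 56.91% (56.3% to 57.52%) had no adult hotspot and 12.26% had all 4. Of the 802 with scores from 50 to under 100, 3.99% (2.84% to 5.578%) had none and 92.14% had all 4. The 73 mESC hotspots at the ceiling departed from this order, with 46.58% (35.59% to 57.9%) in no adult set. The 34 mESC-only regions at the ceiling were open in none of the 16 adult sets of the other hybrids, 31 of them overlapped a hotspot of the mESC CTCF ChIP-seq, and 13 lay mostly in repeats.

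**Figure D1:**
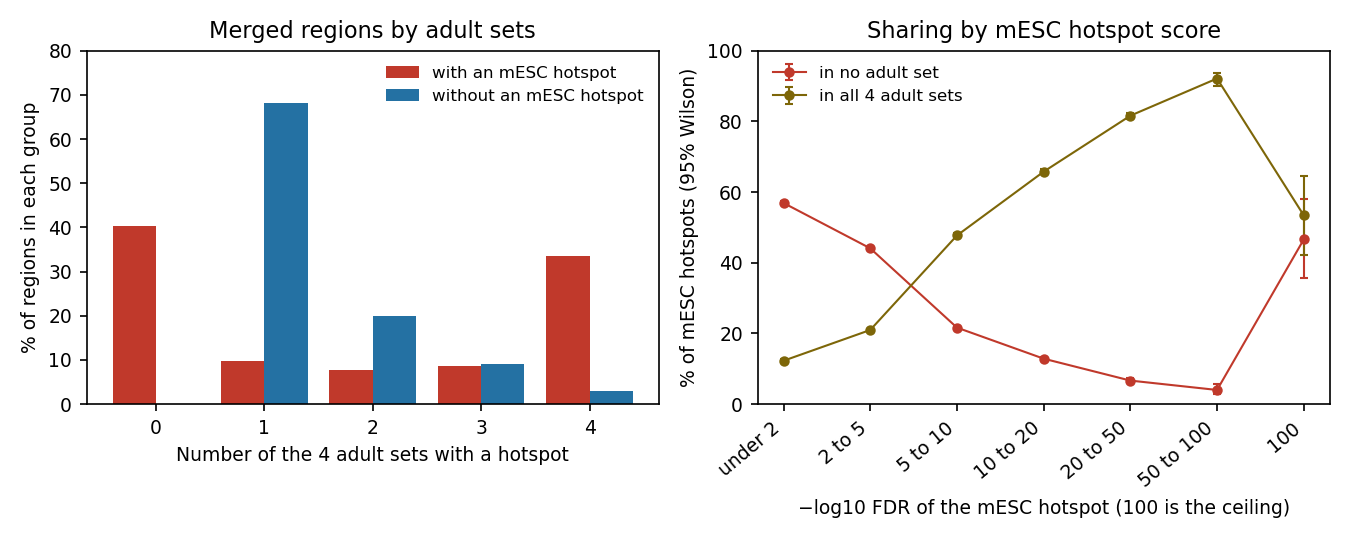
Left, merged regions by the number of adult sets that hold a hotspot (x axis), as % of regions open in mESCs and of regions not open in mESCs (y axis). Right, mESC hotspots by −log10 FDR (x axis) and the % that overlap no adult hotspot or one in all 4 adult sets (y axis, bars are 95% Wilson intervals): the share in none falls from 56.91% to 3.99% below the ceiling and is 46.58% at the ceiling.

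Regions open in mESCs only lay mostly away from gene starts, as did adult-only regions, while regions open in all 5 sets were often at starts. A region counted as at a start when it came within 1 kb of the start of a protein-coding gene. This held for 3.609% of mESC-only, 2.318% of adult-only and 30.71% of all-5 regions. Over the 5 hybrids the shares were 4.537% ± 0.7407, 2.541% ± 0.2773 and 32.98% ± 1.998 (SD, n = 5), and the ranges of the classes did not overlap. Without mESC hotspots beside a shared adult end, the mESC-only share was 3.24%, and with the 75000 highest-scoring hotspots of each set it was 5.662%. Introns held 43.57% of mESC-only, 52.57% of adult-only and 32.41% of all-5 regions, and the space between genes held 45.2%, 38.1% and 29.03%. The median distance to the nearest start was 41.74 kb, 42.08 kb and 11.34 kb.

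The classes differed in size and base composition too. The median width was 193 bp for mESC-only, 248 bp for adult-only and 780 bp for all-5 regions. CpG-rich windows, with at least 50% G or C and an observed to expected CpG ratio of at least 0.6, made up 3.646%, 1.082% and 27.3%. Repeats covered most of the window in 13.87% of mESC-only, 11.33% of adult-only and 5.171% of all-5 regions.

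CTCF occupancy in mESCs marked the shared regions. A hotspot of the mESC CTCF ChIP-seq overlapped 71.43% of all-5 regions, 30.79% of regions open in mESCs and 1 to 3 adult sets, 27.04% of regions open in all 4 adult sets and not in mESCs, 8.525% of mESC-only and 4.336% of adult-only regions. The order of the all-5, mESC-only and adult-only classes held in each of the 5 hybrids, with 71.05% ± 0.4834, 9.877% ± 1.527 and 4.374% ± 0.2326 (SD, n = 5). With the 75000 highest-scoring hotspots of each set the order was kept, and the mESC-only share was 18.24%. The high share at all-5 regions was not limited to gene starts, since it was 83.87% among all-5 regions away from starts, against 8.37% of mESC-only and 4.339% of adult-only regions there. Adult CTCF occupancy was not measured. Seen from the CTCF side, 28.19% of the 92712 CTCF hotspots lay in all-5 regions, 19.93% in adult-only regions, 9.039% in regions shared by mESCs and 1 to 3 adult sets, and 3.683% in mESC-only regions. Within the regions that a CTCF hotspot overlapped, the CTCF consensus stood in 16.12% of all-5, 6.143% of adult-only and 3.709% of mESC-only windows.

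The same classes were looked up in the 16 adult sets of the other hybrids, which took no part in choosing them. Only 15.28% of mESC-only regions were open in 1 or more of the 16, against 80.48% of adult-only and 99.96% of all-5 regions. Of the regions open in all 4 adult sets of B6xCAST and not in mESCs, 99.47% were open in 1 or more of the 16 and 23.45% in all of them. By tissue, another hybrid's Liver held 7.582% of mESC-only regions, its Kidney 5.42%, its Lung 3.891% and its B cells 2.125%. B6x129 accounted for the highest share of any hybrid, 9.909%, and the other 3 ranged from 3.572% to 5.101%.

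**Figure D2:**
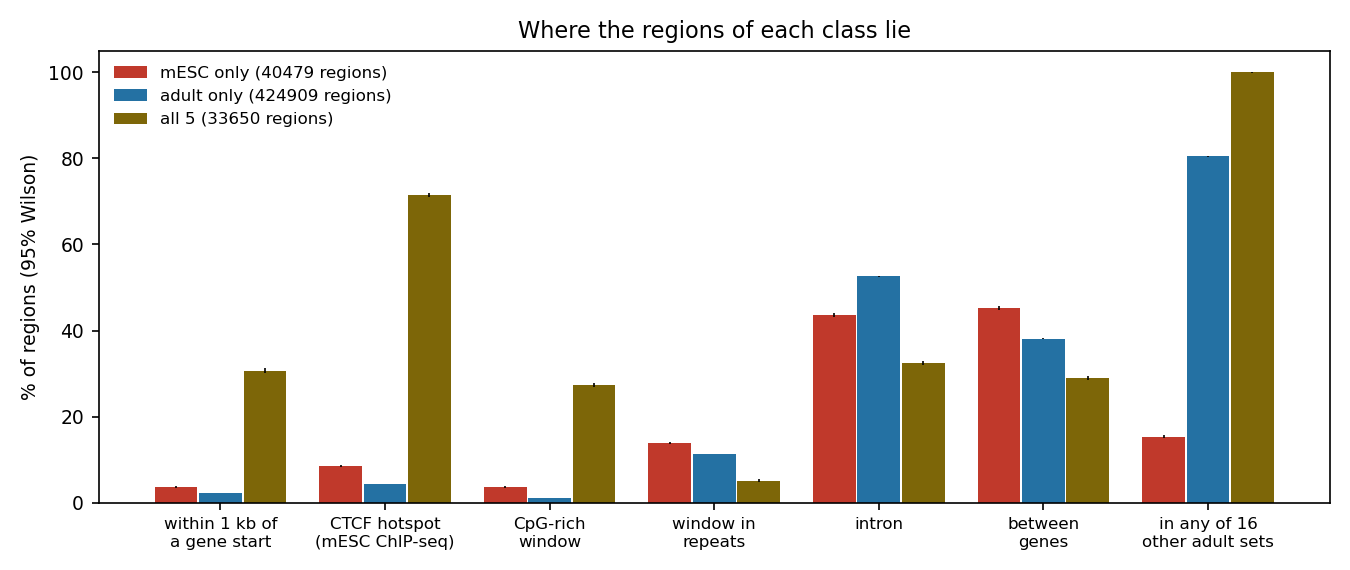
Share of regions in each class (y axis, %, bars are 95% Wilson intervals) with each feature (x axis). The features are a gene start, a mESC CTCF hotspot, a CpG-rich window and a window mostly in repeats. The others are an intron, the space between genes and a hotspot in other hybrids' adult sets. All-5 regions reach 30.71% at starts and 71.43% with CTCF, against 3.609% and 8.525% for mESC-only regions.

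The shares of 200 bp windows at region midpoints that held a consensus differed between mESC-only and pooled adult-only regions. The joint OCT4-SOX2 consensus stood in 0.1853% of mESC-only regions (75), 0.01271% of adult-only regions (54) and 0.01189% of all-5 regions (4), against 0.03065% of all regions. The mESC-only share was thus 14.6 times the adult-only share, and over the 5 hybrids the shares were 0.1806% ± 0.003301 and 0.01341% ± 0.0008116 (SD, n = 5). The octamer stood in 2.952% of mESC-only and 1.326% of adult-only regions, the SOX consensus in 5.679% and 2.722%, the KLF consensus in 4.926% and 2.079%, and the ESRRB consensus in 1.591% and 0.8129%. Over all regions these 4 consensus sequences stood in 1.48%, 2.947%, 2.442% and 0.8644%. Pooling hides single tissues. The octamer stood in 3.529% of regions open in B cell alone and the ESRRB consensus in 1.837% of those open in Liver alone. Both shares were above the mESC-only share, so these 2 were not particular to mESCs. For SOX and KLF the highest shares in 1 adult tissue alone were 3.104% and 3.062%, both in Lung. A window can hold more than 1 consensus, and the octamer can share its letters with the joint consensus. A match describes the letters in a window and is not a bound site. All-5 regions were wider, with a median of 780 bp against 193 bp for mESC-only regions, so a 200 bp window covered less of them. Over the settings tried, the mESC-only share of the joint consensus was at least 2.23 times the all-5 share, against 15.6 in the main setting.

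The shares of the pluripotency consensus sequences were higher outside the crowded windows than inside them. The OCT4-SOX2 consensus stood in 0.2337% of mESC-only regions elsewhere and in 0.03964% of those in crowded windows. For the octamer the shares were 3.396% and 1.615%, for SOX 6.345% and 3.676%, and for KLF 5.874% and 2.071%.

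Letters of factors known from adult tissues ran the other way. The NFI consensus stood in 0.8654% of adult-only and 0.06176% of mESC-only regions, and that of HNF1, a factor of liver and kidney epithelium, in 0.137% and 0.007411%. The consensus of HNF4 (CAAAGTCCA), a receptor of hepatocytes and kidney tubules, stood in 0.851% and 0.2643%, and that of CEBP in 0.08967% and 0.01976%. For PU.1 (GAGGAAGTG), a factor of blood cells, the shares were 1.344% and 0.6769%, and for AP-1 8.638% and 7.014%. The ETS and PU.1 letters overlap in part. RFX (GTTGCCATG) and TEAD (ACATTCC), with ratios of mESC-only to adult-only shares near 1, stood in 0.336% and 3.797% of mESC-only and 0.3669% and 3.859% of adult-only regions.

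All-5 regions stood out for the CTCF consensus, in 11.55% of them against 0.3582% of mESC-only, 0.3831% of adult-only and 1.189% of all regions. NRF1 letters stood in 0.5111% of all-5, 0.2001% of mESC-only and 0.05389% of adult-only regions. Away from gene starts the NRF1 shares were 0.2016%, 0.1794% and 0.05445%. YY1 letters (AAGATGGCG) stood in 0.8113%, 0.2668% and 0.1271%, ETS letters in 0.3744%, 0.1013% and 0.1085%, and the consensus of REST, a repressor of neuronal genes (TTCAGCACC), in 0.6389%, 0.583% and 0.2342%.

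**Figure D3:**
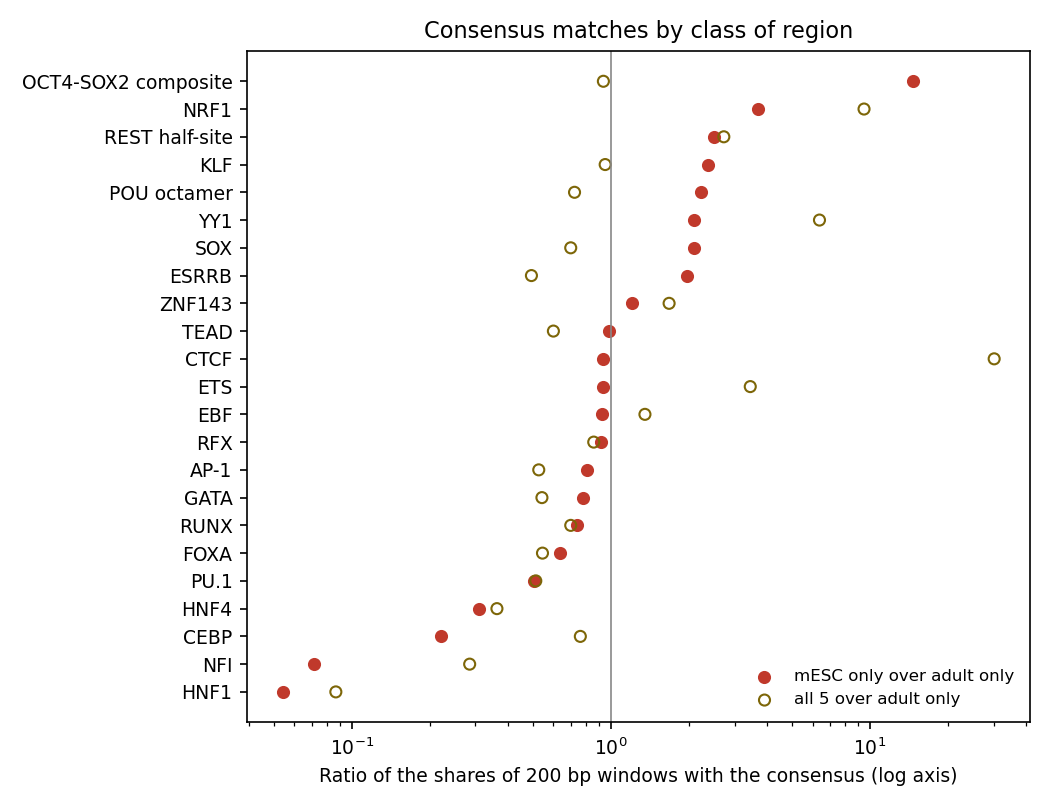
Ratio of the shares of 200 bp windows with each of 23 consensus sequences (log x axis). Points are mESC-only against adult-only regions and all-5 against adult-only regions. OCT4-SOX2 lies at 14.6 and HNF1 at 0.0541 in the first ratio. In the second, CTCF sets 11.55% of all-5 regions against 0.3831% of adult-only regions.

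The 4 genes that mark mESCs were open there to different degrees and were not closed in adult tissue alike. A region was assigned to the protein-coding gene with the nearest start within 200 kb, and the value at a start is the highest −log10 FDR of a hotspot within 1 kb, with 0 where none was called. Pou5f1 (ENSMUSG00000024406, chr17:35506018-35510772, forward strand) had 3.99 at its start in mESCs and 0 in Liver, Kidney, Lung and B cell. Nanog (ENSMUSG00000012396, chr6:122707489-122714633, forward) had 5.73 in mESCs and 1.64 in Lung, and 0 in the other 3. Sox2 (ENSMUSG00000074637, chr3:34650405-34652461, forward) had 83.4 in Lung, 21.4 in Kidney, 9.93 in mESCs, 8.51 in Liver and 0 in B cell. Esrrb (ENSMUSG00000021255, chr12:86361117-86521628, forward) had 0 in mESCs, Liver and B cell, 10.8 in Kidney and 6.13 in Lung. Pou5f1 thus had a start open in mESCs alone, while the annotated start of Esrrb, an orphan receptor that also acts in kidney and other organs, was open in adult tissue and not in mESCs. With the starts of all transcripts counted, Esrrb was open in mESCs, Liver, Kidney and Lung, and Pou5f1 in all 5 sets. In the 20 adult sets of the 5 hybrids, the start of Pou5f1 was open in 1, that of Nanog in 4, all Lung, that of Sox2 in 17 and that of Esrrb in 8.

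Around Pou5f1, 18 of the 20 nearby regions were open in mESCs and 17 in mESCs only, whereas Liver, Kidney and Lung had 1 each and B cell 2. The 2 strongest lay at -3.805 kb, with a width of 1676 bp and a score of 60.95, and at -15.46 kb, with 2143 bp and 38.97, the region whose SOX letters are printed above. A region at -5.034 kb scored 17.2 and one at -17.05 kb, with the KLF letters printed above, scored 12.6. These 4 were open in 0 of the 16 adult sets of other hybrids, apart from the one at -17.05 kb, which was open in 2. The hotspot at the start itself was 238 bp wide and weaker than all of these.

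Nanog, a homeobox factor, had 20 nearby regions, 9 open in mESCs, 3 in mESCs only and 11 in adult sets only. Its mESC-only region at -17.21 kb scored 6.606 and held KLF letters. The hotspot over the start itself, at -0.034 kb and 331 bp wide, scored 5.731 and was also open in mESCs only. The Lung hotspot within 1 kb of the start lay in a separate region at -0.308 kb. Over the 20 adult sets, the highest score within 1 kb of the Nanog start was 8.93, above the mESC value. A region of 1323 bp at -4.756 kb scored 6.577 in mESCs and was also open in Liver, Kidney and Lung.

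Sox2, which neural and airway cells also use, had 86 nearby regions, of which 33 were open in mESCs, 43 in Lung, 30 in Liver, 24 in Kidney and 1 in B cell. Of the 33, 17 were open in mESCs only. A group of hotspots 106.4 to 110.9 kb downstream scored 10.42, 10.14 and 8.313 at regions that were also open in Lung and 11.83 at a region of 735 bp open in mESCs only. A hotspot at +3.509 kb scored 12.91 and was shared with Lung. Sox2 thus had shared and mESC-only regions side by side.

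Esrrb had 63 nearby regions, with 33 open in Kidney, 20 in mESCs, 19 in Liver, 13 in Lung and 10 in B cell. Of these, 8 were open in mESCs only and 43 in adult sets only. The highest scores among its mESC-only regions were 17.96 at +140.7 kb, over 787 bp, and 11.55 at +110.0 kb, over 905 bp, the latter with the octamer printed above. A region at +109.0 kb scored 13.66 and was shared with Kidney. The mESC-only regions of Esrrb with the highest scores therefore lay inside the gene and far from its annotated start.

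**Figure D4:**
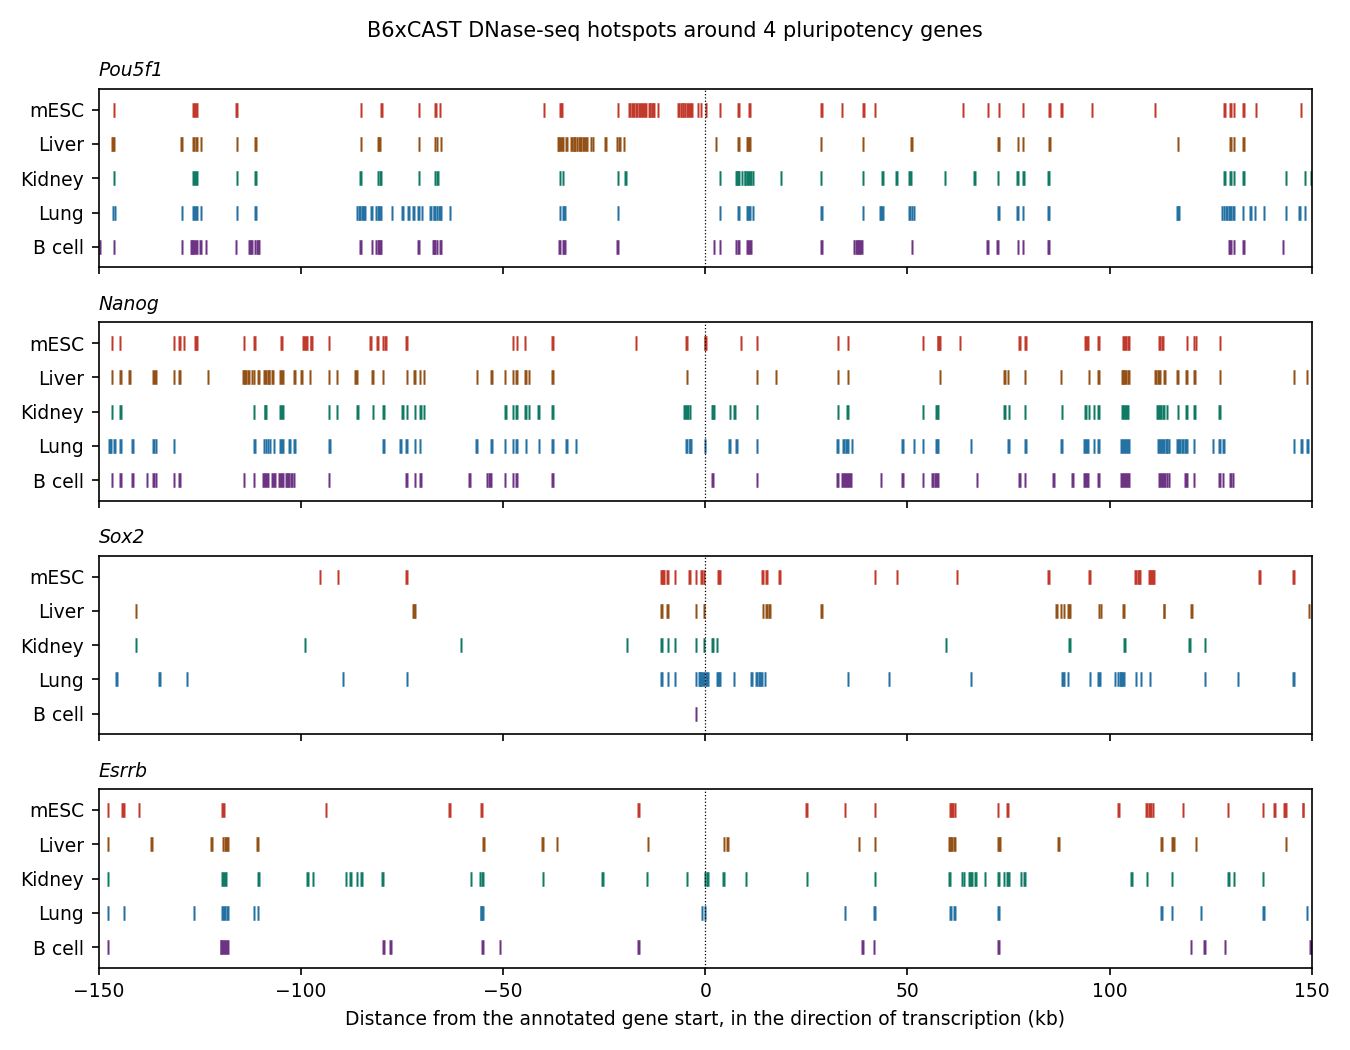
Hotspots of the 5 B6xCAST sets (rows) around Pou5f1, Nanog, Sox2 and Esrrb, by distance from the annotated gene start in kb (x axis). Pou5f1 has a cluster in the mESC row with few hotspots in the adult rows, while Sox2 and Esrrb have hotspots in several rows.

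Of the 20807 autosomal protein-coding genes, 346 had a start open in mESCs only (1.66%), 3224 in adult sets only (15.5%), 11282 in all 5 sets (54.2%) and 520 in all 4 adult sets and not in mESCs (2.5%). Taken set by set, 65.91% of all genes had a start open in mESCs, 73.66% in Lung, 70.99% in Kidney, 67.75% in Liver and 62.58% in B cell, and the counts of each list are to be read against these shares. A further 2086 were open in mESCs and 1 to 3 adult sets, and 3869 in none. With the adult sets of the 5 hybrids in turn, the mESC-only count ranged from 346 to 690 and the all-5 count from 10373 to 11327. Of the 346, 240 (69.36%) had no hotspot at the start in the 16 other adult sets, and of the 520, 519 were open in 1 or more of them. Of the 346, 17 lay beside a shared adult end, and the count without such hotspots was 332. With the 75000 highest-scoring hotspots of each set, 985 genes had a start open in mESCs only, so this count depends on the depth to which each set was taken.

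Genes of naive pluripotency were mostly open at their start in mESCs, as were 65.91% of all genes, and few of these starts were closed in every adult tissue. Of 27 such genes, 23 had a start open in mESCs, 17 in Lung, 14 in Liver, 13 in Kidney and 10 in B cell. In mESCs only were 4 (Pou5f1, Dppa4, Dppa5a and Lin28a), in all 5 sets 6, in mESCs and 1 to 3 adult sets 13, in adult sets only 3, and in none 1. Dppa4, a chromatin factor of early embryos, scored 3.26 in mESCs and 0 in the adult sets. Dppa5a, an RNA-binding protein of pluripotent cells, scored 7.42, and Lin28a, which blocks maturation of let-7 microRNAs, scored 6.38, both with 0 in the adult sets. None of the 4 lay beside a shared adult end, and in the 20 adult sets their starts were open in at most 1.

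Zfp42, which encodes REX1 and is a common marker of naive cells, scored 49.2 at its start in mESCs, 4.11 in Lung and 0 elsewhere, and 22 of its 36 nearby regions were open in mESCs only. Utf1, a chromatin-bound factor, scored 19.8 in mESCs, 12.5 in B cell, 12.4 in Lung and 8.63 in Kidney. Nodal, a signal of the TGF-beta family, scored 17.1 in mESCs, 9.1 in Liver, 7.11 in Lung and 2.22 in B cell. The 6 starts open in all 5 sets were those of Klf2, Klf4, Klf5, Tfcp2l1, Tbx3 and Fgf4. For the 3 KLF factors the mESC scores were 10.5, 6.81 and 15.4, against 100 in each adult set.

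The starts that went against the naive list were those of Esrrb, Nr5a2 and Lefty1, open in adult sets only, and of Lefty2, open in none. Nr5a2, a nuclear receptor that also controls bile acid synthesis in liver, scored 100 in Liver and 0 in the other 4 sets. Lefty1, an inhibitor of Nodal, scored 88.8 in Liver and 0 elsewhere. With the starts of all transcripts counted, the naive list had 2 starts in mESCs only, 11 in all 5 sets, 13 in mESCs and 1 to 3 adult sets, and 1 in adult sets only. Nr5a2 was then open in all 5 sets, Lefty1 in Liver, Kidney, Lung and B cell, and Lefty2 in mESCs, Liver and Lung.

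The regions around the naive genes were counted next. Of 1050 nearby regions, 184 (17.52%) were open in mESCs only, against 7.746% of the regions near any gene. Such shares were not limited to pluripotency genes, since 17.89% of the regions near genes of MHC class I and antigen presentation and 17.71% of those near trophoblast genes were open in mESCs only. With the adult sets of the 5 hybrids in turn, the shares were 21.14% ± 3.733 and 9.831% ± 2.108 (SD, n = 5), and the share was higher near the naive genes in each hybrid. Zfp42 had 22 mESC-only regions nearby, Pou5f1, Sox2, Tfcp2l1 and Dppa4 17 each, and Klf5 16, while Tdgf1, L1td1 and Dppa2 had 1 each. The octamer stood in 8 of the 184 regions (4.348%), SOX letters in 9 (4.891%) KLF letters in 10 (5.435%), ESRRB letters in 1 (0.5435%) and the joint OCT4-SOX2 consensus in 0. Other letters were as frequent there, with AP-1 in 11 (5.978%), EBF (TCCCNNGGG) in 9 (4.891%), and RUNX (AACCACA) and TEAD in 8 each (4.348%).

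Genes of later and other embryonic states were checked in the same way. Of 8 primed pluripotency genes, 7 were open in mESCs, against 65.91% of all genes, and 2 in mESCs only, against 1.66%. These were Otx2, a homeobox factor of the epiblast and forebrain, with 4.55 at the start in mESCs and 0 elsewhere, and T (brachyury), a mesoderm factor, with 4.62 and 0. Otx2 had 30 mESC-only regions among 63 nearby. Near all 8, 27.32% of 205 regions were open in mESCs only. Otx2 was open in all 5 sets when the starts of all transcripts were counted, while T remained in mESCs only.

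Of 5 primitive endoderm genes, 4 were open in all 5 sets and Gata4 in Liver alone, with 8.59. Of 7 trophoblast genes, 4 were open in all 5 sets, Elf5 in Kidney and Lung, and Cdx2 and Hand1 in none. These states are those of the annotated start. By the starts of all transcripts, Gata4 was open in mESCs, Liver, Kidney and Lung and Elf5 in all 5 sets, while Cdx2 and Hand1 remained in none. The 6 multi-copy genes of the cleavage stage, among them Zscan4c and Zfp352, had a start open in none of the 5 sets. Reads from near-identical copies do not map uniquely and were dropped by the authors, so the 0 for these genes is uncertain.

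Germline and meiotic genes held 5 of 18 starts open in mESCs only and 15 open in mESCs, against 1.66% and 65.91% of all genes. Hormad1, of the meiotic chromosome axis, scored 9.76 in mESCs, Slc25a31, a testis ADP/ATP carrier, 9.17, Sycp2, of the synaptonemal complex, 7.73, Dpep3, a dipeptidase of the testis, 6.55, and Mael, of the piRNA pathway, 3.97, all with 0 in the 4 adult sets. Slc25a31 was open in 2 of the 20 adult sets of the 5 hybrids and the other 4 in 0. Asz1 and Tdrd1, both of the piRNA pathway, went the other way and were open in adult sets only, with 3.13 in Liver and 1.97 in Kidney for Asz1 and 3.18 in Kidney and 4.15 in Lung for Tdrd1.

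Among 21 neural and patterning transcription factors, 18 had a start open in mESCs, 0 in mESCs only, and 7 in all 5 sets, against 65.91%, 1.66% and 54.2% of all genes. The regions near them were open in mESCs only in 105 of 524 cases (20.04%). Olig2, a factor of oligodendrocytes and motor neurons, had 23 such regions among 38, Lhx2 15 among 39, Nkx2-2 11 among 35, and Pax6 10 among 39. The annotated start of Pax6 was open in Kidney alone, at 20.5. That of Hoxa9 was also open in Kidney alone, at 100. By the starts of all transcripts, Pax6 was open in all 5 sets and Hoxa9 in Kidney and B cell.

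Genes used by all cells had the same state everywhere, with weaker scores in mESCs. All 19 housekeeping genes were open in all 5 sets, for example with mESC scores of 4.59 for Gapdh and 61.9 for Snrpd3, while the adult scores were 100 in most cases. All 8 genes of MHC class I and antigen presentation were open in all 5 sets, for example B2m with 16.7 in mESCs and 100 in each adult set. Of 7 immediate early genes, 6 were open in all 5, with Fos at 3.75 and Jun at 53.8 in mESCs, and Atf3 was open in none. Of 8 enzymes of DNA methylation, 4 were open in all 5 sets, Tet3 in Lung alone, and Dnmt1, Dnmt3l and Tet1 in none at the annotated start. When the starts of all transcripts were counted, Atf3, Dnmt1, Tet1 and Tet3 were open in all 5 sets and Dnmt3l in mESCs, Kidney and Lung.

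Adult lineage genes served as a check of the tissue labels and of other cells in the mESC set. All 10 liver genes were open in Liver and 2 in mESCs, all 10 kidney genes in Kidney and 2 in mESCs, 9 of 10 lung epithelium genes in Lung and 0 in mESCs, and 9 of 10 B cell genes in B cell and 4 in mESCs. Albumin scored 100 in Liver, 36.1 in Lung, 11.8 in Kidney and 0 in mESCs and B cell. Sftpc, a surfactant protein, scored 100 in Lung and 0 in the other 4 sets. Cd79a, a signalling chain of the B cell receptor, scored 100 in B cell, 33.7 in Lung and 0 elsewhere. Of the B cell genes, Vpreb1 (26.6), Ebf1 (14.8), Pax5 (6.22) and Cd79b (1.57) were open in mESCs, and of the liver genes Apob (27.6) and Apoa1 (2.07).

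Markers of cells that could accompany mESCs in culture or blood cells in the organs were also counted. Of 9 fibroblast genes, 4 were open in mESCs (Col1a1 16.1, Col1a2 6.85, Thy1 6.19, Twist1 3.63) and 5 were not, among them Col3a1, Dcn and Pdgfrb. Of 8 leukocyte genes, 2 were open in mESCs, 8 in Lung, 7 in B cell and 6 in Liver, and of 8 endothelial genes 2 in mESCs and 7 each in Liver and Lung. Over all genes the shares were 65.91% for mESCs, 73.66% for Lung, 62.58% for B cell and 67.75% for Liver. The part of such cells in the shared regions was not tested. All 9 fibroblast genes were open in Lung.

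**Figure D5:**
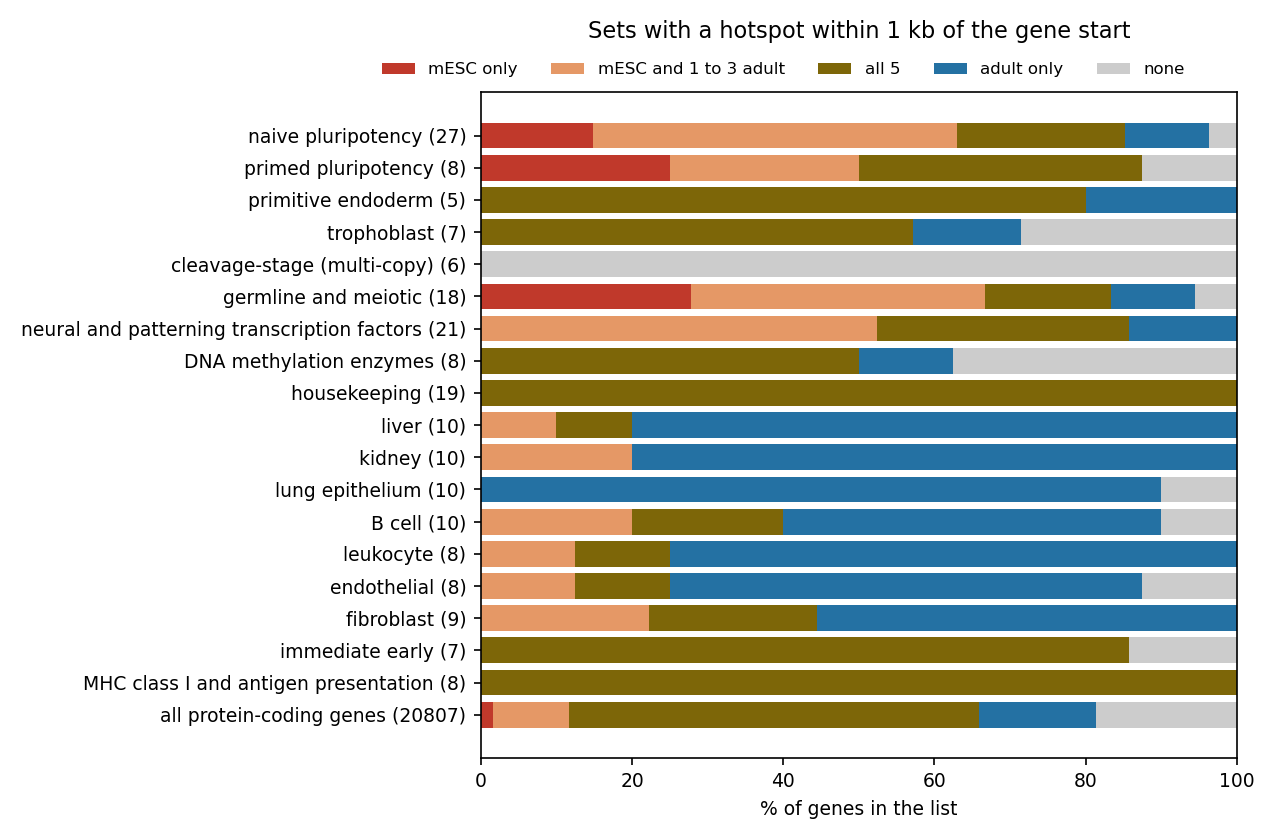
For each gene list (y axis, number of genes in parentheses), % of genes (x axis) with a start open in mESCs only, mESCs and 1 to 3 adult sets, all 5 sets, adult sets only, or none. Housekeeping genes are all in the all-5 class, and the mESC-only class appears in the naive (4 of 27), primed (2 of 8) and germline (5 of 18) lists.

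The starts with the strongest mESC-only hotspots were of another kind than pluripotency genes. Of the 15 highest, 6 reached the ceiling, namely Sfi1, a centrosome gene, and the predicted genes Gm21738, Gm10800, Gm10715, Gm10801 and Gm10717. Repeats covered 88.5% of the window at Sfi1, 84.0% at Gm21738 and 97.0% at Gm10800. Genes with near-identical copies, as these may be, are uncertain. The next were Coil, the scaffold of Cajal bodies, and Elobl, which share a hotspot of 1676 bp scoring 77.87, then Cwc22, a splicing factor (53.64), Inpp5f, a phosphoinositide phosphatase (50.49), and Gm10722 (47.91). Trpm8, the cold receptor channel, and Hjurp, the chaperone of the centromeric histone, share a hotspot scoring 44.84, and Man2c1, a mannosidase, and Zfp143, a promoter-binding zinc finger factor, scored 43.42 and 42.94.

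All 15 of these starts were closed in the 20 adult sets, and 3 of them faced a shared adult end: 18 adult sets began at the same base beyond the Sfi1 hotspot, 16 beyond that of Inpp5f and 19 beyond that of Zfp143. For Zfp143 the mESC hotspot ran from 110060509 to 110062263 on chromosome 7 and the 19 adult sets began at 110062313. The other 12, among them Coil, Cwc22, Trpm8 and Man2c1, faced no shared end. The part of the way adult sets were made in these starts was not tested.

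Starts open in all 4 adult sets and not in mESCs were ranked by the lowest of the 4 scores, and all 15 highest were at 100 in every adult set. They included Add3, a protein of the membrane skeleton, Bmi1, a Polycomb protein, Psmb10, a subunit of the immunoproteasome, Pabpn1, which binds poly(A) tails in the nucleus, and Prelid1, a lipid carrier of mitochondria. The MHC class I gene H2-T22 and Gm6034 share a hotspot, and Bcl10, an adaptor of NF-kappaB signalling, Fdft1, of cholesterol synthesis, Lig1, a DNA ligase, and Serpinb9, an inhibitor of granzyme B, were also among them. Prr12, Trim8, Ell3 and Gm10643 complete the 15. The number of mESC-only regions near these genes was 0 for each except Lig1 (14 of 20) and Bcl10 (2 of 44). The median over all protein-coding genes was also 0.

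Counting regions instead of starts, the genes with the most mESC-only regions, given below out of their nearby regions, were Clvs2, a lipid-binding protein of neurons (104 within 50 kb of its start alone), Mettl4, a methyltransferase (89 of 122), Cwc22 (69 of 85), the kinase gene Yes1 (61 of 91), Asns, asparagine synthetase (61 of 82), Nubpl, of mitochondrial complex I assembly (58 of 90), BC107364 (58 of 84), the morphogen gene Shh (56 of 101), B3galnt2, a glycosyltransferase (53 of 71), and 6030452D12Rik (46 of 48). Crowded windows lay by several of these genes. The window chr10:33600001-33700000 by Clvs2 held 68 mESC-only regions and 72 mESC hotspots, against 0 to 6 hotspots in each of the 20 adult sets and 1 CTCF hotspot. The window chr5:32600001-32700000 by Yes1 held 62 mESC-only regions, against 4 to 18 hotspots in each adult set, and 9 CTCF hotspots. The window chr2:77900001-78000000 by Cwc22 held 51 mESC-only regions, against 0 to 2 hotspots in each adult set.

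Regions in crowded windows were weaker and had fewer other marks than mESC-only regions elsewhere. Their median score was 2.062 against 2.519 and their median width 172 bp against 198 bp. A CTCF hotspot overlapped 3.954% against 10.04%, and 8.264% against 17.61% were open in 1 or more of the 16 other adult sets. Of the 560 windows, 7 held regions of naive genes (Dppa4, Fgf4, Nr5a2, Pou5f1, Utf1 and Zfp42).

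The genes with the most regions open in all 4 adult sets and not in mESCs are given next, out of their nearby regions. They were Tbl1xr1, a subunit of a corepressor complex (15 of 168), Zmiz1 (14 of 180), Irf2bp2 (14 of 124) and Tomm20 (14 of 102). Next came Zfp36l2, which destabilises mRNAs (13 of 149), and Smad7, an inhibitor of TGF-beta signalling (12 of 186). Hes1, a target of Notch (11 of 144), Tgfbr2, a TGF-beta receptor (11 of 157), Irs2, an adaptor of the insulin receptor (11 of 183), and Rreb1 (11 of 166) followed. Of all merged regions, 2.454% were of this class. These genes had many nearby regions of any class, and only 2 to 7 of the counted regions of each lay within 50 kb of its start. All 10 of these genes had a start open in all 5 sets, against 54.2% of all genes.

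Single places close the account. The strongest mESC-only regions by score and width were chr11:3184196-3197298 at Sfi1 and Drg1, 13103 bp wide, chr17:39842895-39848930 in an exon of Gm26917, 6036 bp wide, chr14:19415624-19419748 at Gm21738, chr15:75085387-75087149 between genes, 25.7 kb from the start of Ly6c2, and chr2:98666136-98667434 at Gm10800. Each overlapped a mESC CTCF hotspot and was open in 0 of the 16 other adult sets, but the CTCF consensus was absent from their 200 bp windows. Repeats covered 88.5% of the window at Sfi1, 84.0% at Gm21738, 97.0% at Gm10800, 36.0% near Ly6c2 and 0.0% in Gm26917. Whether these places, Gm26917 among them, have near-identical copies elsewhere in the genome was not examined, so their scores are uncertain. The part of repeats in these CTCF overlaps was not tested. The strongest regions of all 4 adult sets lay at -13.37 kb from the start of Chit1, in introns of Pard3, Slc12a3 and Csk, at the start of Bmi1, and 5.97 kb downstream of the start of Hes1. Each of these was open in all 16 other adult sets. The strongest all-5 regions lay at gene starts, among them Sin3a, of a histone deacetylase complex, over 7034 bp, Txndc16 and Gpr137c, Serf2 and Stard5.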

How the data were processed

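DNase-seq of B6xCAST mESCs, Liver, Kidney, Lung and B cell and CTCF ChIP-seq of mESCs were used. The authors mapped reads to mm10 with BWA (named in the submitters' processing notes), kept unique alignments, pooled the libraries of each hybrid and tissue and ran hotspot2 with a threshold of FDR 5%. Whether both mESC libraries entered the mESC set, and whether regions were masked, is not given in the sources used here. The deposited files hold hotspot positions with a −log10 FDR for each, capped at 100. They hold no read counts. Positions are counted from 1.

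Autosomal hotspots touching by 1 bp were merged, and a region was assigned to each set with a hotspot in it. Gene starts, exons and introns came from GENCODE vM21, sequences and repeats from GRCm38. A start was open with a hotspot within 1 kb. Consensus sequences (23) were sought on both strands of 200 bp windows at midpoints. Samples were grouped by their labels. With 1 pooled set per type no test was made, and shares have 95% Wilson intervals. The members, the 18 gene lists and the consensus sequences were chosen with earlier results of these data known. Genes named were the 4 markers, list members (those against their list and up to 6 others), the 10 genes with the most mESC-only and all-4-adult regions, the 15 highest-scoring starts and the 6 highest-scoring regions of each class. Printed sequences were picked from the highest-scoring matches of a class. Values named outside these rules were chosen after they were seen.

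Alternatives were FDR 1%, the 75000 highest-scoring hotspots per set, merging up to 150 bp apart, mESC hotspots as units with 1 bp or 50% overlap, adult sets of each other hybrid, leaving out each tissue, 500 bp or 2 kb from starts, and all transcript starts. A further alternative searched the whole region for the consensus in place of the 200 bp window. Leaving out crowded windows, repeats or hotspots beside shared adult ends was added after the data were seen. Merging and counting were tested on simulated intervals. RNA-seq files were not used here. Not every gene that these rules name is reported here. Python 3.11.15, numpy 2.4.6, pandas 2.3.3 and matplotlib 3.10.9 were used.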

Additional observations from a re-analysis of the deposited data

How the results depend on the processing

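Of the values recomputed for the main results, 116 stayed within their counting interval or, for counts, within 1.5 times the main count, and 97 moved. No direction changed: all-5 regions were at starts 5.44 to 13.6 times as often as mESC-only regions in 19 settings, the joint OCT4-SOX2 consensus was 11 to 18.4 times as frequent in mESC-only as in adult-only regions in 18, and regions near naive genes were mESC only 2.02 to 2.58 times as often as those near any gene in 17. Against all-5 regions the joint consensus was also more frequent in mESC-only regions in 18 settings. The lowest ratio there was 2.23, while the main ratio was 15.6. The cause of the moves was not tested. Counting intervals are narrow at these numbers, so small moves leave them.

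The share of mESC hotspots in no adult set (36.03%) was 31.67% at FDR 1%, 40.74% with the 75000 highest-scoring hotspots, 32.59% with merging up to 150 bp and 38.19% with 50% overlap. It was 43.07%, 40.89% and 44.09% with the adult sets of B6xC3H, B6xPWK and B6xSPRET. Leaving out Liver, Kidney, Lung or B cell gave 37.86%, 39.0%, 40.27% and 38.19%, higher by construction. It was 30.78% without crowded windows and 34.75% without repeats.

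The share of mESC-only regions at starts (3.609%) was 3.882% at FDR 1%, 5.662% with the 75000 highest-scoring, 2.42% with merging and 4.036% with 50% overlap. With B6x129, B6xC3H, B6xPWK and B6xSPRET it was 3.865%, 4.935%, 5.165% and 5.111%, and without Kidney, Lung or B cell 3.798%, 4.208% and 3.906%. Within 500 bp or 2 kb it was 2.179% and 6.07%. It was 3.965% without crowded windows, 3.994% without repeats and 3.24% without hotspots beside a shared adult end. For adult-only regions (2.318%), the first 4 settings gave 2.379%, 2.875%, 1.692% and 2.382%, the 4 hybrids 2.194%, 2.619%, 2.714% and 2.86%, leaving out Liver, Kidney, Lung or B cell 2.513%, 2.5%, 2.629% and 2.585%, the 2 distances 1.064% and 5.159%, and leaving out repeats 2.454%. For all-5 regions (30.71%), FDR 1% gave 32.15%, the 75000 highest-scoring 45.08%, mESC hotspots as units 34.07%, 50% overlap 33.82%, the 4 hybrids 31.33%, 35.27%, 32.94% and 34.67%, leaving out Liver or B cell 29.5% and 28.56%, the 2 distances 29.55% and 33.05%, and leaving out repeats 32.4%.

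The share with a CTCF hotspot in mESC-only regions (8.525%) was 10.68% at FDR 1%, 18.24% with the 75000 highest-scoring and 9.46% with merging. The 4 hybrids gave 8.098%, 10.32%, 10.71% and 11.73%, and leaving out Kidney, Lung or B cell 9.403%, 8.812% and 10.12%. It was 10.05% without crowded windows and 7.844% without repeats. In adult-only regions (4.336%), FDR 1% gave 5.12%, the 75000 highest-scoring 7.467%, the 4 hybrids 4.498%, 4.702%, 4.111% and 4.223%, leaving out Liver, Kidney, Lung or B cell 4.812%, 4.556%, 4.975% and 4.155%, and leaving out repeats 3.919%. In all-5 regions (71.43%), the 75000 highest-scoring gave 67.15%, merging 71.93%, mESC hotspots as units 63.29%, 50% overlap 64.37%, B6xPWK and B6xSPRET 70.48% and 70.58%, leaving out Liver, Kidney or B cell 70.51%, 70.66% and 66.04%, and leaving out repeats 70.12%.

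With the 75000 highest-scoring hotspots there were 129549 adult-only regions in place of 424909 and 19167 all-5 regions in place of 33650. Genes with a start open in mESCs only (346) were 985 there, 649, 658 and 690 with B6xC3H, B6xPWK and B6xSPRET, and 552 within 500 bp. No paired analysis was possible because each cell or tissue type has 1 pooled set and no test was made.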

Other observations

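Across the autosomes, the mESC-only share of merged regions ran from 6.254% on chromosome 19 to 9.075% on chromosome 17.

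Of the mESC-only hotspots that no adult set of any hybrid held, 476 of 34295 lay beside an adult end shared by 5 or more adult sets. Their median score was 3.597 against 2.291 for the rest, 34.66% against 2.904% were at a gene start, and 26.05% against 6.508% overlapped a CTCF hotspot. Of the 476, 93 lay between 2 shared ends, with a median width of 724 bp and 74.19% at a gene start. The starts of 2 genes of this kind outside the named rules, chosen after their values were seen, were Cycs, which encodes cytochrome c, and Snrnp70, of the U1 spliceosome particle. Their mESC hotspots scored 45.34 and 55.5 and held NRF1 letters, and 7 and 10 adult sets ended at 1 base before them. The part of the way the sets were made in these values was not tested.

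In 24 results set out over the 5 hybrids, 0 had a hybrid that stood apart from the other 4 by Dixon's ratio (critical value 0.71).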
